A study of Arabidopsis thaliana with 9 samples.

Results

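The 50 genes described here encode, in the nucleus, the parts of the photosynthetic apparatus of Arabidopsis thaliana: light-harvesting proteins (LHCA and LHCB), subunits of photosystem I (PSA) and photosystem II (PSB), the electron carriers PETC and PETE, and the small subunit of Rubisco (RBCS). They were listed by locus, with earlier results of these data known. Each was read from the brightest of the probes that the array carries for it. All 50 were measured, among 23063 genes tested. The array holds 162 probes for them, between 1 and 13 for a gene, and every one of these probes was above the background and below saturation on all 9 arrays.

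The study compared 3 groups of 4-week-old seedlings of the wild-type ecotype Columbia (Col-0), grown in pots on artificial soil and irrigated with fresh water. Plants of the control group received water, those of the NaCl group 150 mM NaCl and those of the ABA group 10 µM abscisic acid (ABA), the hormone that plants make under drought and salt stress, each for 6 h. RNA came from entire plants, root and shoot together, and each group was hybridised to 3 one-colour Agilent arrays. The study's methods state that the harvested plants of a treatment were pooled and then split into 3 portions, while its design text speaks of separate experiments, so every p-value below measures only the spread between these arrays, which may be partly technical.

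Light-harvesting proteins bind chlorophyll and pass the absorbed energy to photosystem II, which splits water, and to photosystem I, which reduces ferredoxin, with the cytochrome b6f complex and plastocyanin carrying electrons between them. Rubisco fixes carbon dioxide with the energy so gained. These nuclear genes are among the most strongly transcribed of a green leaf, and their transcripts are known to respond to light, sugars, the state of the chloroplast and stress.

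The 9 arrays were alike in the share of spots well above the background, from 68.9% to 72.0%, and correlations within a group ran from 0.941 to 0.985. Each group lay on slides of its own, and the NaCl slide had been scanned 235 days before the control and ABA slides, so treatment cannot be told apart from slide and scan day in any comparison with NaCl, nor from slide between ABA (slides 2 and 3) and control (slide 1). Very bright spots were read by the scanner software from a second scan at low gain, which supplied 133 to 134 of the 162 photosynthesis probes on the control arrays, 136 to 138 on the ABA arrays and 97 to 105 on the NaCl arrays. LHCB4.3, LHCB2.3, PSAH-1, PSAH-2, PSAL, PSBS and PETE1 were read at low gain on all control and ABA arrays and on no NaCl array. PSBQ1 was read so on 1 NaCl array and all others, and LHCA6 on 1 control array, all ABA arrays and no NaCl array. For these genes the comparisons with NaCl thus set signals of different scans side by side, and the effect of this was not tested. Spots marked as non-uniform were left out, and these were common on the control arrays: up to 29 of the 162 probes on 1 array. As a result 17 of the 50 genes rest on 8 arrays in place of 9. Values are log2 signals after quantile normalization, which gives every array the same distribution, and a difference is called where limma's Benjamini-Hochberg adjusted p is under 0.05 and the change is at least 2-fold.

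With NaCl, 17 of the 50 genes fell and none rose. Among all genes tested 23.1% were called, 12.6% down and 10.5% up. The median log2 fold change of the 50 genes was -0.75, against -0.08 for all genes, and single genes ran from -4.67 (LHCB4.3) to 0.29 (LHCB1.5). Without the 2-fold threshold 36 of the 50 passed limma's adjusted p in the downward direction, against 22.1% of all genes. None passed it upward, against 17.3% of all genes. An unadjusted upward p under 0.05 was reached by 1 gene by limma, LHCB1.2, against 22% of all genes by limma. The methods' t-test gave 1 gene as well, and its share over all genes is not given here. The 3 NaCl arrays lay below all control arrays in 40 of the 50 genes, against 29% of all genes, and above them in 3, against 24% (52.9% of all genes in either direction). A left-out spot makes such a separation easier, and 17 of the 50 genes had one. The sign of the log2 fold change was negative for 44 of the 50 genes after quantile normalization and after scaling each array to its 75th percentile, for 46 without scaling, and for all 50 after scaling to spike-in RNA, a choice made after seeing the data that moved the median of all genes to -1.15 and that of the 50 genes to -2.12. In these bulk samples fewer green cells and less RNA of these genes per cell cannot be told apart.

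The medians over the 50 genes, each gene set against its mean on the control arrays, were -0.89, -0.75 and -0.61 on NaCl arrays 1, 2 and 3, against 0.15, 0.00 and -0.08 on the control arrays and 0.03, -0.00 and -0.06 on the ABA arrays. Each NaCl median lay below those of the other 6 arrays. Of the 48 genes with a value on all 3 NaCl arrays, array 1 held the lowest value in 33 and array 3 the highest in 35. The typical spread of one of these genes within a group was small: the median SD was 0.18 over the control arrays, 0.14 over the NaCl arrays and 0.06 over the ABA arrays.

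**Figure D1:**
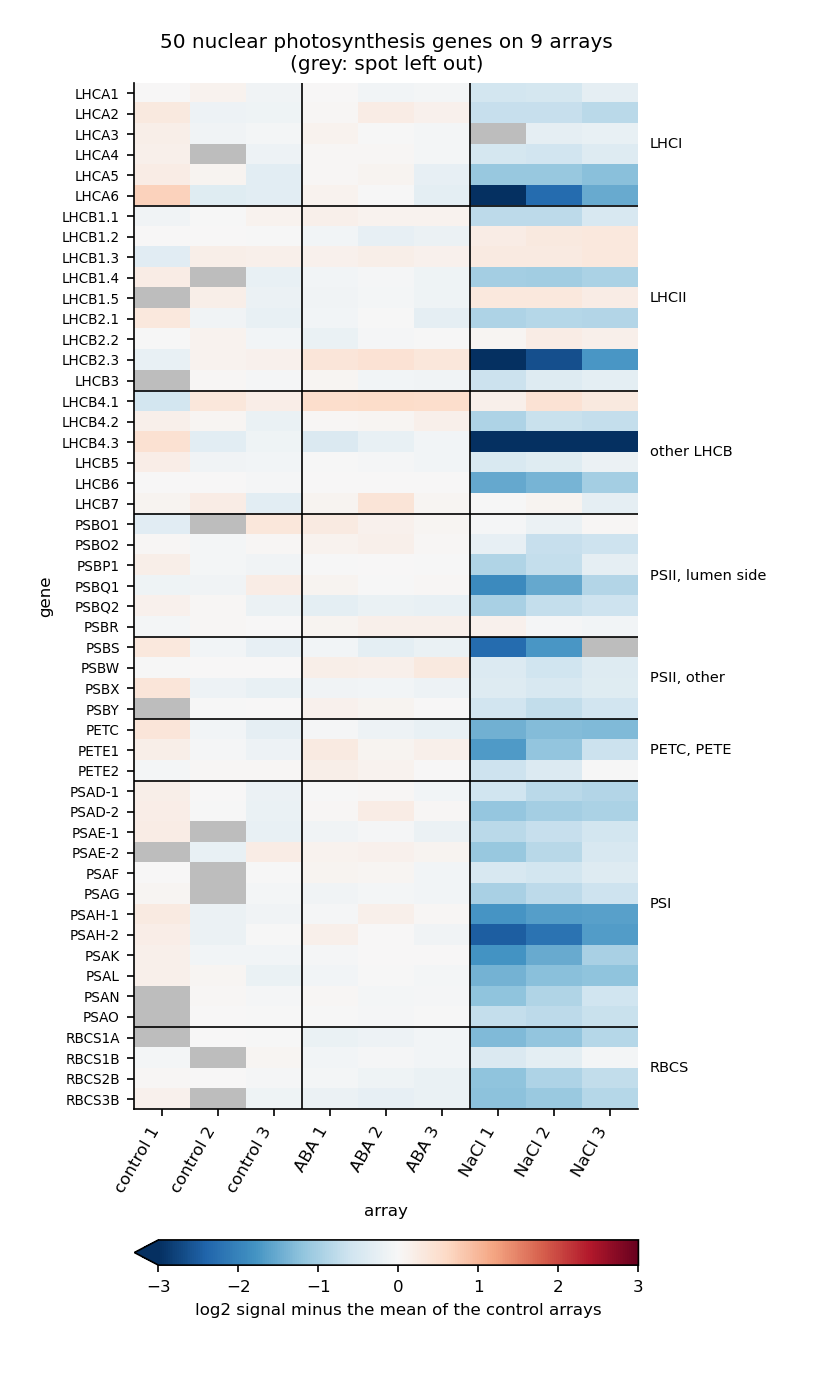
Signal of each of the 50 genes (rows, grouped by complex) on each of the 9 arrays (columns), as log2 signal minus the gene's mean on the control arrays. Blue is lower and red is higher, grey marks a spot left out, and the colour scale ends at -3, which LHCB4.3 passes. Control and ABA columns are pale throughout, whereas the NaCl columns are blue in most rows; LHCB1.2, LHCB1.3, LHCB1.5, LHCB2.2, LHCB4.1 and PSBR are the rows with a mean above the control, and all 6 turn negative after scaling to spike-ins, LHCB4.1 also with the 75th percentile and, with PSBR, without scaling.

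Among the 6 LHCA genes, whose products form the antenna of photosystem I, LHCA5 and LHCA6 fell with NaCl and the median log2 fold change was -0.62. Both encode low-abundance antenna proteins known to link photosystem I to the NDH complex of cyclic electron flow. LHCA6 (AT1G19150) had log2 signals of 14.83, 13.79 and 13.82 on the control arrays, 14.25, 14.13 and 13.84 with ABA, and 10.45, 11.83 and 12.64 with NaCl. The NaCl values lay well below the other 6 and differed among themselves by more than those did. The fold change was 5.67-fold down (log2 -2.50 ± 0.53, SE, limma adjusted p = 0.0078, n = 3 per group). LHCA5 (AT1G45474) had 14.09, 13.94 and 13.56 on the control arrays against 12.72, 12.72 and 12.61 with NaCl, a 2.26-fold decrease (log2 -1.18 ± 0.17, limma adjusted p = 0.0018). The NaCl arrays lay close to one another in LHCA5 and all below the control. The 4 main antenna genes had smaller differences, all under 2-fold. LHCA2 had a log2 fold change of -0.74, LHCA4 -0.50 and LHCA1 -0.44, all with limma adjusted p under 0.05, and LHCA3 -0.24 with an adjusted p of 0.24.

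The LHCII genes LHCB1, LHCB2 and LHCB3, which encode the trimeric antenna of photosystem II, did not move one way. LHCB2.3 and LHCB1.4 fell, LHCB1.1, LHCB2.1 and LHCB3 lay below the control on every NaCl array without a 2-fold change, and LHCB1.2, LHCB1.3 and LHCB1.5 lay above it on every NaCl array (below it after scaling to spike-ins). LHCB2.3 (AT3G27690) had log2 signals of 16.19, 16.51 and 16.53 on the control arrays, 16.76, 16.83 and 16.75 with ABA, and 12.73, 13.77 and 14.66 with NaCl. Its NaCl arrays thus spread over nearly 2 log2 units and none reached the lowest control array, while each ABA array exceeded the 3 control arrays. The decrease with NaCl was 6.45-fold (log2 -2.69 ± 0.41, limma adjusted p = 0.0022), and the ABA difference of 0.37 had an adjusted p of 0.71. LHCB1.4 (AT2G34430) had 17.88 and 17.45 on the control arrays with a usable spot against 16.64, 16.61 and 16.71 with NaCl, a 2.01-fold decrease (log2 -1.01 ± 0.17, limma adjusted p = 0.0041) that lies on the edge of the 2-fold threshold.

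LHCB1.3, in contrast, had 17.80, 18.31 and 18.28 on the control arrays, 18.26, 18.31 and 18.26 with ABA, and 18.40, 18.40 and 18.45 with NaCl. The NaCl values were the highest of the 9, but control array 1 lay far below the other control arrays. The log2 fold change of 0.29 ± 0.16 did not pass limma's test (adjusted p = 0.18), and it was 0.12 without control array 1. Without NaCl array 2 another probe of the gene was the brightest, and the value was -0.07. LHCB1.2 had a log2 fold change of 0.28 with an adjusted p of 0.084 and LHCB1.5 of 0.29 with 0.17 (0.12 without control array 3), each positive with every scaling except spike-ins. The sign also depended on the probe. LHCB1.2 was at -0.37 with the mean of its probes and -0.80 with the dimmest, and LHCB1.5 at 0.33 and -0.58. LHCB1.1, LHCB1.2 and LHCB1.3 lie next to one another in the TAIR10.1 annotation, as do LHCB1.4 and LHCB1.5. They are near-identical copies whose RNA a probe may not separate, so values for single copies of LHCB1 and LHCB2 are uncertain.

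Of the other LHCB genes, which mostly encode the monomeric antenna proteins between LHCII and the photosystem II core, LHCB4.3 and LHCB6 fell. LHCB4.3 (AT2G40100), a less abundant isoform of its family, gave the largest decrease of the 50: log2 signals of 14.93, 14.15 and 14.35 on the control arrays, 14.04, 14.26 and 14.40 with ABA, and 9.24, 9.27 and 10.91 with NaCl. Control and ABA arrays overlapped, and the NaCl arrays stood at least 3 log2 units below both. The decrease was 25.5-fold (log2 -4.67 ± 0.44, limma adjusted p = 0.00035), and the single probe for LHCB4.3 stayed above the background on all NaCl arrays. LHCB6 (AT1G15820) had 18.61, 18.61 and 18.54 on the control arrays, 18.61 on each ABA array, and 17.06, 17.20 and 17.55 with NaCl, a 2.49-fold decrease (log2 -1.31 ± 0.15, limma adjusted p = 0.00067). Its probe was the brightest spot of all on 2 control arrays and all 3 ABA arrays and ranked between 65 and 123 with NaCl. Quantile normalization gives the brightest spot one fixed value, so the equal values of 18.61 do not measure its spread.

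For the other copies of the LHCB4 family, LHCB4.2 had a log2 fold change of -0.77 (limma adjusted p = 0.0049, under 2-fold) and LHCB4.1 of 0.29 (adjusted p = 0.34), the latter with 16.14, 17.02 and 16.89 on the control arrays and 16.84, 17.12 and 16.97 with NaCl. These LHCB4.1 groups overlapped, and its log2 fold change was 0.02 without control array 1, -0.03 after scaling to the 75th percentile, -0.31 without scaling and -1.16 after scaling to spike-ins. Of its 5 probes 3 lay below 0, at -0.94, -0.89 and -1.08, and the dimmest was at 0.13. The mean of its probes gave -0.50. LHCB5 had -0.33 (adjusted p = 0.092) and LHCB7, a rare relative of the family, -0.07 (adjusted p = 0.79). Leaving out LHCA5, LHCA6, LHCB4.3 and LHCB7, the less abundant isoforms, a choice made after seeing the data, 14 of 46 genes fell and the median was -0.73.

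Among the 6 photosystem II proteins of the lumen side, which stabilise the water-splitting centre, only PSBQ1 (AT4G21280) was called from the brightest probes. It had log2 signals of 16.08, 16.09 and 16.41 on the control arrays, 16.28, 16.19 and 16.22 with ABA, and 14.28, 14.65 and 15.31 with NaCl. All NaCl arrays lay below the others, by a mean of 2.73-fold (log2 -1.45 ± 0.25, limma adjusted p = 0.0035). Its duplicate PSBQ2 had a log2 fold change of -0.76, PSBP1 -0.63 and PSBO2 -0.52, all with adjusted p under 0.05 and under 2-fold. The brightest of the 5 PSBP1 probes gave the smallest decrease, and the next brightest was at -1.41. With the mean of its probes PSBP1 was at -1.55 and was called (limma adjusted p = 0.0012), as it was with the dimmest. PSBR had 17.99, 18.07 and 18.04 on the control arrays and 18.16, 18.00 and 17.96 with NaCl, a difference of 0.00 with a 95% interval from -0.27 to 0.27. PSBO1 had -0.06 with a wide interval, from -0.58 to 0.46, and rests on 2 control arrays that differed, 17.94 and 18.61. With marked spots kept, the log2 fold change of PSBO1 was 0.43.

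Of the 4 other photosystem II genes, PSBS fell. PSBS (AT1G44575) senses the acidity of the thylakoid lumen and is needed for the rapid dissipation of excess light as heat. Its log2 signals were 16.66, 16.26 and 16.09 on the control arrays, 16.25, 16.06 and 16.13 with ABA, and 14.02 and 14.60 on the NaCl arrays with a usable spot. Both NaCl values were lower than all others by over 1 log2 unit, and the decrease was 4.08-fold (log2 -2.03 ± 0.24, limma adjusted p = 0.0012, n = 2 with NaCl). The small membrane subunits PSBY, PSBW and PSBX had log2 fold changes of -0.63, -0.47 and -0.41, the first 2 with adjusted p under 0.05, and PSBX had -0.22 without control array 1.

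PETC, the Rieske iron-sulphur protein of the cytochrome b6f complex, and PETE1, 1 of the 2 plastocyanin genes, fell. PETC (AT4G03280) went from 17.06, 16.62 and 16.44 on the control arrays to 15.26, 15.40 and 15.39 with NaCl, 2.56-fold lower (log2 -1.36 ± 0.17, limma adjusted p = 0.0011). The groups were more than 1 log2 unit apart. PETE1 (AT1G76100) went from 15.17, 14.95 and 14.84 to 13.30, 13.81 and 14.33, 2.26-fold lower (log2 -1.17 ± 0.25, limma adjusted p = 0.0078). The groups of PETE1 did not overlap, but without NaCl array 1 its log2 fold change was -0.92 and no longer 2-fold. PETE2, the other plastocyanin gene, had -0.35 with overlapping groups (adjusted p = 0.13).

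In photosystem I, which passes electrons on to ferredoxin, all 12 PSA genes lay lower on every NaCl array than on any usable control array, against 29% of all genes. PSAE-1, PSAE-2, PSAF, PSAG, PSAN and PSAO had only 2 usable control arrays, which makes such a separation easier. All 12 had a limma adjusted p under 0.05, against 22.1% of all genes in the downward direction. The 2-fold threshold was passed as well by 5 of them, against 12.6% of all genes. The median log2 fold change of the 12 was -0.86. The 2 PSAH genes, whose product sits where LHCII docks on photosystem I during state transitions, fell most. PSAH-2 (AT1G52230) had 14.92, 14.54 and 14.72 on the control arrays, 14.88, 14.73 and 14.63 with ABA, and 12.24, 12.50 and 13.06 with NaCl, a 4.36-fold decrease (log2 -2.12 ± 0.22, limma adjusted p = 0.00048). PSAH-1 (AT3G16140) had 15.73, 15.29 and 15.36, then 15.43, 15.62 and 15.49, and with NaCl 13.70, 13.81 and 13.84, a log2 fold change of -1.68 ± 0.15 (limma adjusted p = 0.00031). In both genes the ABA arrays lay among the control arrays and the NaCl arrays over 1 log2 unit below.

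PSAK (AT1G30380), a peripheral subunit on the side of the LHCA antenna, went from 17.91, 17.68 and 17.68 to 15.97, 16.25 and 16.78 (2.68-fold lower, log2 -1.42 ± 0.21, limma adjusted p = 0.0017). PSAL (AT4G12800), the neighbour of PSAH in the complex, went from 15.73, 15.63 and 15.38 to 14.17, 14.32 and 14.37 (2.45-fold lower, log2 -1.29 ± 0.14, limma adjusted p = 0.00051). In both genes the highest NaCl array lay well below the lowest control array. PSAD-2 (AT1G03130), 1 of 2 genes for the ferredoxin-docking subunit, fell 2.05-fold (log2 -1.04 ± 0.15, limma adjusted p = 0.0016), and it was no longer 2-fold without control array 1 or without NaCl array 1. The other 7 had log2 fold changes between -0.90 (PSAN, on the lumen side) and -0.47 (PSAF, which docks plastocyanin), with PSAE-2 at -0.82 (-0.37 with marked spots kept), PSAG at -0.79, PSAD-1 at -0.76, PSAO at -0.73 and PSAE-1 at -0.69. PSAF turned to 0.59 with marked spots kept, where its left-out spot on control array 2, ranked 632 on that array against 19 and 21 on the other control arrays, was used.

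Of the 4 RBCS genes, which encode the small subunit of Rubisco, RBCS1A and RBCS3B fell and RBCS2B lay just under the threshold. RBCS1A (AT1G67090) had 18.14 and 18.10 on the control arrays with a usable spot, 17.92, 17.96 and 18.04 with ABA, and 16.80, 16.94 and 17.27 with NaCl, a 2.17-fold decrease (log2 -1.11 ± 0.18, limma adjusted p = 0.0034). RBCS3B (AT5G38410) had 18.23 and 17.99 on the control arrays, 17.94, 17.86 and 17.91 with ABA, and 16.87, 17.00 and 17.25 with NaCl, a 2.09-fold decrease (log2 -1.07 ± 0.17, limma adjusted p = 0.0035). In both genes all NaCl arrays were below all others. RBCS2B had a log2 fold change of -0.96 (1.94-fold, limma adjusted p = 0.0021), and RBCS1B of -0.26 with overlapping groups (adjusted p = 0.23). RBCS2B and RBCS1B are adjacent in the TAIR10.1 annotation with RBCS3B close by, and probes may not separate the copies. The RBCS1A call did not hold after scaling to the 75th percentile (-0.32, limma adjusted p = 0.19), where another of its 13 probes was the brightest.

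**Figure D2:**
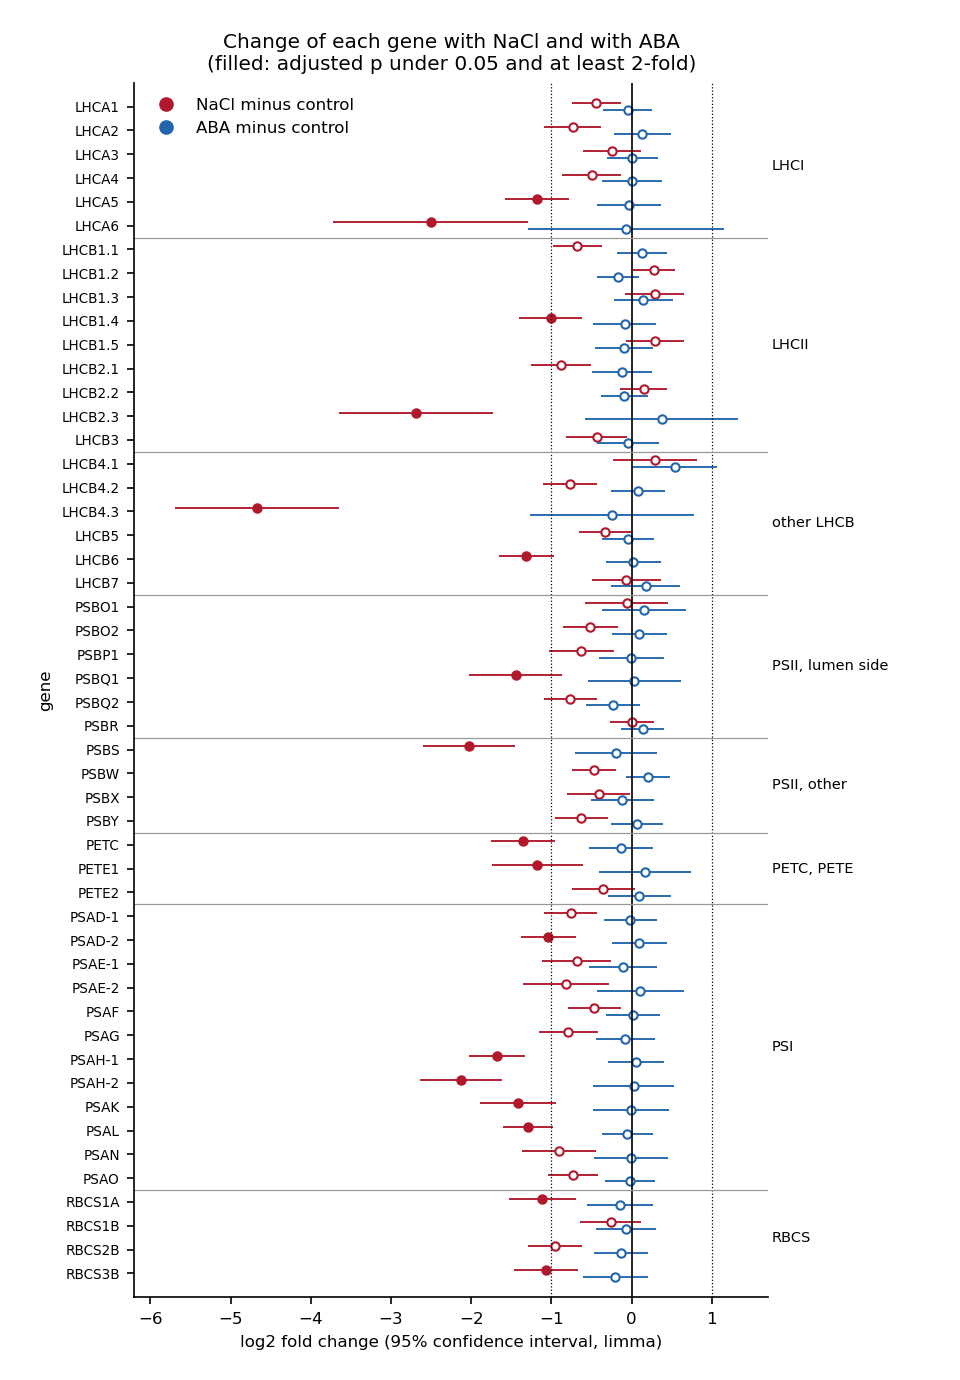
Log2 fold change of each of the 50 genes with NaCl (red) and ABA (blue) against the control, with 95% confidence intervals from limma; filled points passed an adjusted p under 0.05 and a 2-fold change, and dotted lines mark 2-fold. The 17 filled points are all NaCl decreases, and every blue point lies between -0.24 and 0.54.

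**Figure D3:**
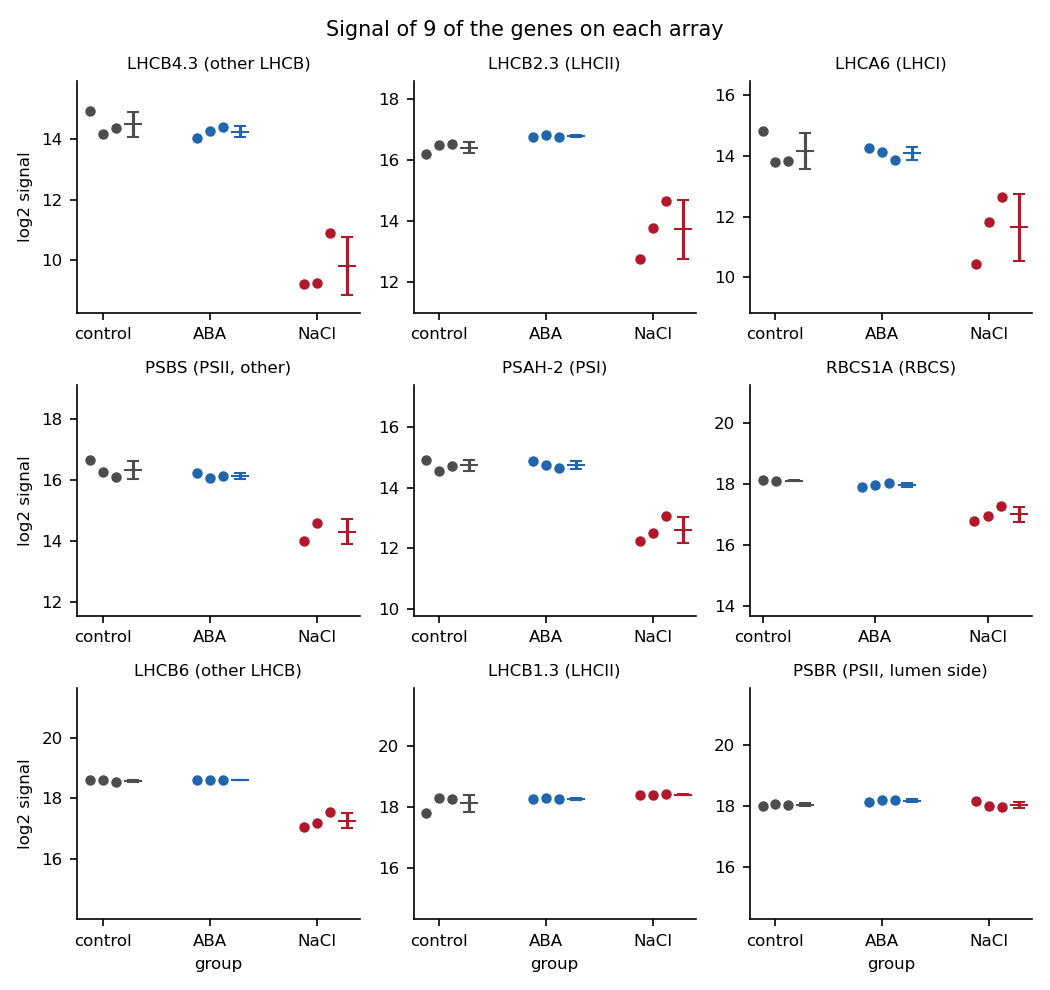
Log2 signal of 9 of the genes on each array, with the group mean and SD (bars) beside the points, all panels spanning the same number of log2 units. NaCl arrays lie lowest in LHCB4.3, LHCB2.3, LHCA6, PSBS, PSAH-2, RBCS1A and LHCB6, highest in LHCB1.3 (mean below the control after scaling to spike-ins), and among the others in PSBR.

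With ABA none of the 50 genes was called by limma, against 1.53% of all genes (0.585% down and 0.945% up, or 0.767% and 1.09% without the 2-fold threshold). Without ABA array 1 the calls over all genes at the 2-fold threshold dropped from 135 to 30 and from 218 to 76. At an unadjusted limma p under 0.05, LHCB4.1 was higher and none of the 50 was lower, against 7.05% and 10% of all genes. The methods' t-test without adjustment and without a fold threshold passed 3 of the 50, and its share over all genes is not given here. The median log2 fold change was -0.01, against -0.05 for all genes, and single genes ran from -0.24 to 0.54. ABA arrays lay above all control arrays in 4 genes and below them in 5, against 11.1% and 16.7% of all genes (27.8% in either direction). The largest difference was that of LHCB4.1, with 17.21, 17.25 and 17.22 on the ABA arrays against 16.14, 17.02 and 16.89 on the control arrays. The ABA values were above all control values, but control array 1 was far below the other 2, and limma gave 0.54 ± 0.23 with an adjusted p of 0.28, the lowest of the 50.

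The genes whose ABA and control arrays did not overlap came from several complexes. LHCB2.3 (0.37), LHCB4.1 (0.54), PSBW (0.21) and PSBR (0.14) were the 4 higher ones. The 5 lower ones were RBCS1A (-0.14), RBCS2B (-0.13), RBCS3B (-0.20), LHCB1.2 (-0.17) and PSBQ2 (-0.24). Among them were 3 of the 4 RBCS genes, where 16.7% of all genes were lower, with limma adjusted p between 0.61 and 0.75. RBCS1A and RBCS3B rest on 2 usable control arrays, which makes such a separation easier, and RBCS1A was at 0.18 with marked spots kept. How wide a change the data still allow differs by gene. The 95% interval for RBCS1A ran from -0.56 to 0.27 and that for PSBR from -0.13 to 0.41, whereas that for LHCA6 ran from -1.29 to 1.15 and for LHCB4.3 from -1.26 to 0.77. The direction of the 50 genes as a whole depended on the scaling: 27 were below 0 after quantile normalization, 41 after scaling to the 75th percentile, 36 with spike-ins and none without scaling.

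Compared with NaCl directly, 14 of the 50 genes were higher with ABA and none was lower, against 10.9% and 9.56% of all genes (20.5% in either direction), with a median log2 difference of 0.73. At an unadjusted p under 0.05, 2 genes were lower by limma, against 22.6% of all genes by limma. The methods' t-test gave 4, and its share over all genes is not given here. Without the 2-fold threshold 36 were higher, against 18.6% of all genes, and 1 was lower, against 17.2%. ABA and control arrays are both set against the same NaCl arrays here, so this comparison is not independent of the one between NaCl and control. The differences that passed were led by LHCB4.3 (4.43), LHCB2.3 (3.06), LHCA6 (2.43) and PSAH-2 (2.15). ABA arrays were higher than all NaCl arrays in 43 genes, against 26.3% of all genes, and lower in 4, against 25.9% (52.2% in either direction). The 4 were LHCB1.2, LHCB1.3, LHCB1.5 and LHCB2.2, and LHCB1.2 had a limma adjusted p of 0.018 (log2 -0.44, under 2-fold). All 4 were higher with ABA after scaling to spike-ins and without scaling.

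The several probes of a gene did not give one value. Of the 41 genes with more than 1 probe, the dimmest probe had a lower NaCl log2 fold change than the brightest in 39, with a median of -1.40 for the dimmest and -0.69 for the brightest. With ABA the same medians were 0.10 and -0.01. Sorted by mean log2 signal, the median NaCl fold change of the photosynthesis probes was -1.45 for 31 probes under 14, -1.46 for 15 probes between 14 and 15, -1.33 for 22 probes between 15 and 16, -1.01 for 33 probes between 16 and 17, -0.56 for 50 probes between 17 and 18 and -0.11 for 11 probes over 18. The other probes on the array had medians from -0.11 to 0.23 in the same ranges. Above 14 the median of the photosynthesis probes was closer to 0 in each brighter range. The median of the other probes rose as well, from -0.02 between 14 and 15 to 0.23 between 17 and 18. It was 0.14 for the 9 other probes over 18. The 253 other genes read at low gain on all 9 arrays had a median of 0.21, against -0.08 for all genes. Whether compression at the bright end plays a part was not tested. The brightest spike-in probe, at 18.02 on the control arrays, read 0.41 higher on the NaCl arrays before scaling, while the spike-in probe at 15.82 read 0.87 higher.

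Counting probes in place of genes, 149 of the 162 were below 0 with NaCl and 13 above, and 84, from 43 of the 50 genes, were at -1 or lower. All probes lay below 0 in 33 of the 41 genes and on both sides of 0 in 8. RBCS1A had the most probes, 13, with log2 fold changes from -2.43 to -0.17. LHCB2.2 had the 2 brighter of its 4 probes at 0.15 and 0.67 and the 2 dimmer at -1.43 and -1.76, and LHCB1.3 had 9 probes from -1.65 to 0.29. The positive values of the LHCB1 and LHCB2 copies and of LHCB4.1 in the comparison of brightest probes are thus not shared by all their probes. With the dimmest probe of each gene 40 of the 50 genes fell with NaCl, and with the mean of all probes 26, so the count of 17 is the lowest of the 3. The median of the 50 was then -1.39 and -1.02, against -0.13 and -0.10 for all genes. The shares of all genes called with these 2 choices are not given here.

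**Figure D4:**
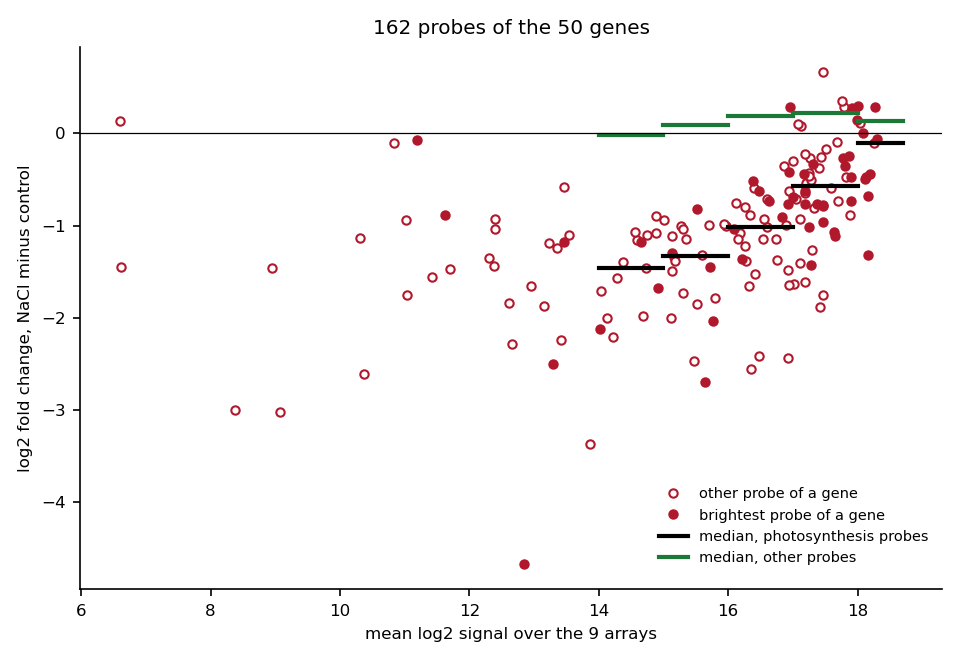
Log2 fold change with NaCl against mean log2 signal for the 162 probes of the 50 genes (filled: brightest probe of a gene; open: other probes). Black lines are medians of the photosynthesis probes within steps of 1 in log2 signal, which run from -1.46 to -0.11 above a signal of 14, and green lines those of all other probes, which lie between -0.02 and 0.23 there.

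Genes that work beside the 50 are read against the 12.6% of all genes that fell and the 10.5% that rose. In chlorophyll biosynthesis 12 of 24 genes fell and none rose, with a median log2 fold change of -1.22 and no gene above 0. CHLI2 (-2.29), CHLI1 (-1.94) and CHLH (-1.84), all subunits of magnesium chelatase, led the list, and CHLH went from 16.97, 16.05 and 16.10 on the control arrays to 14.19, 14.65 and 14.77 (limma adjusted p = 0.0020). In the Calvin-Benson cycle 8 of 17 fell and none rose (median -0.82), led by GAPA2 (-1.93), SBPASE (-1.87) and FBP (-1.69), which encode a glyceraldehyde-3-phosphate dehydrogenase subunit and the bisphosphatases of sedoheptulose and fructose. Photosystem assembly factors and minor subunits gave 5 of 11 down and none up (median -0.95), among them HCF136, an assembly factor of photosystem II (-1.75), PSB28 (-2.33) and HCF101 (-1.41).

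In the list of other electron transport and ATP synthase genes 5 of 11 fell and 1 rose (median -0.89). ATPD (-1.62), FNR2 (-1.54) and FD1 (-1.27), a subunit of the ATP synthase, the ferredoxin-NADP reductase and a ferredoxin, were the leading decreases. PGRL1B, a protein of cyclic electron flow, rose by 1.09, or -0.10 after scaling to spike-ins, and its call was lost without control array 3 (0.92) or NaCl array 1 (0.85). The LHC-like stress proteins gave 4 of 8 down and none up (median -1.25). ELIP2, an early light-induced protein, went from 8.33 and 8.62 on the usable control arrays to 4.83, 6.66 and 6.26 with NaCl (-2.56 ± 0.52, limma adjusted p = 0.0084), with LIL3.1 at -1.71 and SEP1 at -1.29.

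The remaining 2 lists did not share the downward direction. Of the 14 tested regulators of photosynthesis genes, from 16 listed, 2 rose and 2 fell (median 0.05), counts near the shares over all genes. GLK2, a transcription factor that activates photosynthesis genes, went from 12.61, 12.68 and 11.97 to 13.85, 13.72 and 13.45 (1.25 ± 0.22, limma adjusted p = 0.0035, 0.02 with spike-ins), and GNC, a GATA factor of greening, rose by 1.01 (-0.14 with spike-ins), under 2-fold without control array 3 (0.97), NaCl array 2 (0.87) or NaCl array 3 (0.90). The sigma factors of the plastid RNA polymerase SIG2 (-1.22) and SIG6 (-1.05) fell, SIG6 without its call when control array 1 (-0.74), NaCl array 1 (-0.88), NaCl array 2 (-1.01) or ABA array 3 (-1.05) was left out. Of the 12 genes of chlorophyll breakdown and senescence 5 rose and 1 fell (median 0.60). NYE2, which takes part in removing magnesium from chlorophyll, rose by 2.82 from 9.22, 9.69 and 9.77 to 13.24, 11.98 and 11.90 (limma adjusted p = 0.0015). PPH, the pheophytinase, rose by 1.29 (0.01 with spike-ins), and its call was lost without control array 1 (1.14) or NaCl array 1 (0.91). SAG12, a senescence marker protease, passed the background on a single control array (1 of 3), with 4.54, 1.46 and 1.52, and reached 13.87, 7.85 and 12.76 with NaCl. CLH1, a chlorophyllase, fell by 2.40, with no call without control array 1 (-1.95, limma adjusted p = 0.078).

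With ABA limma called none of the genes of these 7 lists. At an unadjusted p under 0.05, 3 of the breakdown genes, 5 of the regulators, 2 of the chlorophyll biosynthesis genes and 1 of the LHC-like genes were higher with ABA, and none of the 7 lists had a lower one, where 7.05% of all genes were higher and 10% lower. NYE1, another gene of magnesium removal, had 12.11, 12.56 and 11.99 with ABA against 10.23, 11.02 and 10.86, a log2 difference of 1.52 with non-overlapping groups and a limma adjusted p of 0.050, just over the threshold.

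**Figure D5:**
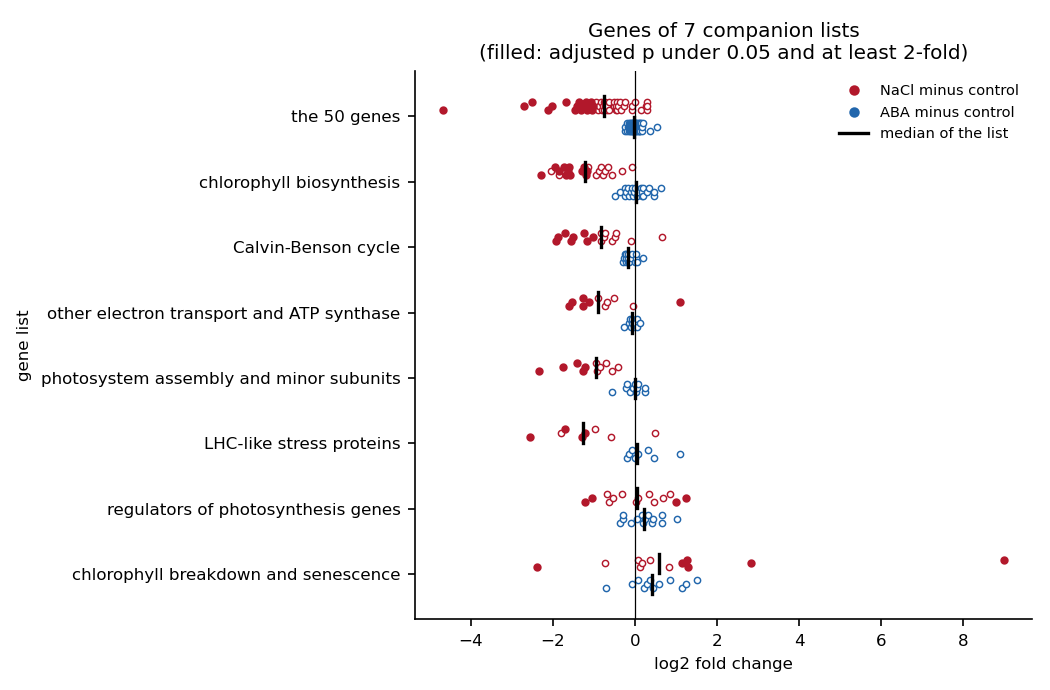
Log2 fold changes of the genes in the 50-gene set and 7 companion lists with NaCl (red) and ABA (blue) against the control; filled points passed an adjusted p under 0.05 and a 2-fold change, and black bars are list medians. NaCl medians lie between -1.25 and -0.75 for the 50 genes and 5 lists, and at 0.05 and 0.60 for the regulators and the breakdown genes, relative to a median of -0.08 for all genes; scaling to spike-ins lowers the all-gene median to -1.15.

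Of 13 markers of root cells 9 were tested, and 8 of these lay above 0 with NaCl, with a median log2 fold change of 2.50 against -0.08 for all genes. Only COBL9 of root hairs was called, with 3.90, 2.77 and 2.14 on the control arrays and 6.32, 5.36 and 7.26 with NaCl, where the probe passed the background on 1 control array and all 3 NaCl arrays (limma adjusted p = 0.0031), and it had a log2 fold change of 0.93 and no call with normexp background correction. The summed intensity of the root list ran from 1041 to 13452 on the control arrays, from 687 to 8801 with ABA and from 7596 to 38126 with NaCl, so that NaCl and control overlapped, and IRT1 was not above the background on any array. Against the control all 9 tested root markers were below 0 with ABA, with a median of -0.91 against -0.05 for all genes, and none was called. Between ABA and NaCl 3 root markers were lower with ABA, COBL9 (-4.29), the phosphate transporter PHT1.1 (-5.00) and CASP1 of the endodermis (-3.72). CASP1 had 10.90, 9.56 and 6.04 on NaCl arrays 1, 2 and 3 and between 4.05 and 6.95 on the others, and each of the CASP1 and PHT1.1 calls was lost when any of 7 of the 9 arrays was left out.

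Of 9 markers of shoot cells outside photosynthesis 8 lay below 0 with NaCl (median -0.97), and MYB60 of guard cells (-2.67) and YAB3 of the leaf underside (-1.63, or -0.30 with the mean of its probes) fell, where 12.6% of all genes fell. The same 2 were higher with ABA than with NaCl, MYB60 by 2.32 and YAB3 by 1.37. The summed intensity of the shoot list overlapped between the groups, from 5552 to 11157 on the control arrays, 5959 to 12174 with ABA and 4283 to 14364 with NaCl. The part that a different share of root and shoot in the harvested material plays in the lower signal of the photosynthesis genes with NaCl was not tested.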

How the data were processed

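RNA of 3 groups of 3 samples was measured on one-colour Agilent arrays. Per the file headers, the authors extracted spot intensity values with Agilent Feature Extraction 10.7.3.1, which subtracts background and scales bright spots from a low-gain scan, with no normalization between arrays. The deposited array files also give median signal and background intensity, and other marks of 0 or 1 for spots above background, saturated, non-uniform or outlying. The authors also deposited a table of log2 values. Its NaCl columns follow another distribution than its control and ABA columns, so it served only as an alternative for ABA against control. Its genome build and annotation version are not given in the sources used here, and the number of columns matching no sample was 0.

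Probes were joined to loci through the accessions of the array annotation (34374 of 43603 probes matched; the NaCl files carry an earlier annotation with 1985 other accessions, none of which changes a probe of the 50 genes) and the RefSeq table of TAIR10.1. Log2 processed intensity was quantile-normalized over 9 arrays, spots marked non-uniform or outlying were then left out and spots of a probe averaged. Probes well above background on all 3 arrays of a group were kept, and the brightest kept probe stood for its gene. One limma fit (limma 3.58.1, R 4.3.3) of 23063 genes gave all comparisons, with Benjamini-Hochberg adjustment over all genes. With 3 arrays against 3, a permutation test of a single gene could not go below p = 0.1. The fit was run on simulated data with known changes as a check of the code only, and the outcome is not given here. The number of arrays limits the precision. Figures used matplotlib 3.10.9.

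Every one of the 50 genes was named, and of each companion list up to 3 called genes per direction and comparison. NYE1 and the marker genes below background were named after their values were seen. The members and lists were chosen with earlier results of these data known. The alternatives cover scaling, background, probe choice, spot and probe filters, blocks, tests (among them the t-test that the study's methods name) and leaving out arrays. Scaling to spike-ins, removing marked spots before normalization, holding each gene to its probe while leaving out arrays and leaving out rare isoforms were added after seeing the data. Same-numbered arrays did not deviate together (correlations from -0.28 to 0.23), but ABA columns of the deposited log2 table match array files of other ABA replicates, so the ABA numbers are in doubt.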

Additional observations from a re-analysis of the deposited data

How the results depend on the processing

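With NaCl the members called down numbered 34 without scaling, 26 with the mean of the probes, 40 with the dimmest probe, 36 without the fold threshold, 1 under the methods' t-test after Benjamini-Hochberg and 45 after scaling to spike-ins (chosen after seeing the data), against 17, and their median log2 fold change was -0.98 with the 75th percentile, -1.31 without scaling, -1.02 with the mean, -1.39 with the dimmest probe and -2.12 with spike-ins. Relative to the median of all genes the shift was -0.67 after quantile normalization, -0.96 with the 75th percentile, -1.01 without scaling and -0.97 with spike-ins. It was -0.92 with the mean of the probes and -1.26 with the dimmest probe. With ABA the median was -0.18 with the 75th percentile and 0.35 without scaling (all genes 0.48). Between ABA and NaCl the members up numbered 41 without scaling, 30 with the mean, 40 with the dimmest probe, 5 under the adjusted t-test, 36 without the fold threshold (1 down) and 44 with spike-ins, with medians of 1.63, 1.09 and 1.45 for no scaling, mean and dimmest, and 2.03 with spike-ins. With the dimmest probe LHCB2.2 turned to -1.76 with NaCl and 2.03 between ABA and NaCl, and LHCB1.3 to 1.15 between ABA and NaCl. With spike-ins LHCB4.1 turned to -1.16, PGRL1B to -0.10 and 0.092 (ABA against NaCl) and GNC to -0.14. The cause was not tested. Leaving out 1 array gave 14 to 19 down with NaCl (median -0.82 to -0.67), 0 with ABA (-0.05 to 0.06) and 14 to 18 up between ABA and NaCl (0.68 to 0.77). Without control array 1 LHCB1.4 (-0.79), PSAD-2 (-0.95) and RBCS3B (-0.93) lost their NaCl call, without NaCl array 1 PETE1 (-0.92), PSAD-2 (-0.99), RBCS1A (-0.97) and RBCS3B (-0.94), and without NaCl array 2 LHCB1.4 (-0.95) and RBCS3B (-0.98). RBCS2B passed without each NaCl array in turn (-1.93 to -1.48), where another of its probes was the brightest. With every gene held to its probe of the full set, a choice made after seeing the data, RBCS2B passed only without NaCl array 3 (-1.04) and the members down numbered 12 to 19, with LHCB1.4 (-0.98) also lost without NaCl array 1. PSAN passed without NaCl array 3 (-1.05) and PSAE-2 without control array 2 (-1.04). With marked spots kept LHCB1.4, RBCS1A and RBCS3B lost it and PSAF turned to 0.59. The replicate block gave 17 down and a median of -0.74 with NaCl and changed no member call, and slides as a random block had a negative correlation (-0.34). Over all genes, NaCl decreases and increases numbered 2903 and 2422, against 1665 down with normexp, 316 and 422 under the adjusted t-test, 5102 and 3993 without the fold threshold and 12788 and 854 with spike-ins. Those without scaling, where the median of all genes was -0.30, and those with the mean or the dimmest probe are not given here. ABA decreases and increases numbered 135 and 218, against 30 to 139 and 76 to 218 with 1 array left out (30 and 76 without ABA array 1, 35 and 100 without ABA array 2, 70 and 143 without ABA array 3, 63 and 141 without control array 1, 45 and 98 without control array 3, 71 and 150 without NaCl array 2), 61 and 1341 without scaling, 566 and 710 with the slide block, 297 and 433 with array weights, 538 and 694 with unadjusted p, none under the adjusted t-test, and 79, 71 and 76 decreases with the replicate block, the series table and spike-ins. Between ABA and NaCl the decreases and increases numbered 2204 and 2521, against 833 and 8201 without scaling, 1371 up with normexp, 688 and 588 under the adjusted t-test, 3968 and 4283 without the fold threshold and 571 and 13536 with spike-ins. The series table could not be applied to NaCl.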
